A study of Homo sapiens with 6 samples.

Results

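Genes of prostaglandin synthesis, breakdown and reception were followed in Daoy cells, an established human medulloblastoma line, during endoplasmic reticulum (ER) stress. The set was a fixed list of 9 genes out of the 19775 genes that had a probe set of their own on the array. It held the cytosolic phospholipase PLA2G4A, the cyclooxygenases PTGS1 and PTGS2, the prostaglandin E synthases PTGES, PTGES2 and PTGES3, the degrading enzyme HPGD and the E receptors PTGER2 and PTGER4. Every probe set that the platform annotation gives to one of these symbols alone was taken, 18 in all, and the list goes by the genes' function. The stress came from thapsigargin (Tg), an inhibitor of the calcium pump of the ER, used at 1 µM for 3 h or for 8 h, and the control group received none. The 3 groups had 2 arrays apiece, which the labels number as replicates 1 and 2. No genetic change or second agent was named for any group, the labels name no vehicle in the untreated cells, and a single cell line was used throughout.

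Prostaglandins are short-lived lipid signals made from arachidonic acid. A phospholipase A2 releases the acid from membranes when calcium rises, a cyclooxygenase turns it into prostaglandin H2, and terminal synthases turn that into separate products, of which prostaglandin E2 is the best known for fever, pain and the growth of blood vessels around tumours. The product leaves the cell, acts on receptors of the same or nearby cells, and is inactivated by an oxidising dehydrogenase. PTGS2 is the inducible cyclooxygenase, kept low in most resting cells, whereas PTGS1 is made steadily in many tissues.

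The measure throughout was the MAS5 signal, a linear brightness per probe set that the authors had scaled to one trimmed mean on every array. A probe set entered the test when 2 or more of its 6 signals reached 100, and log2 signals were then fitted with limma. The adjusted p is that of Benjamini-Hochberg over 27616 probe sets, with a threshold of 0.05, and "the blocked fit" is the same model with the replicate number as a block. A gene was read from its brightest probe set, which left 12839 genes tested. Signals of different probe sets are not comparable as levels, since each probe set binds its target with its own strength. Arrays with the same number shared technical traits: replicate 1 arrays had median signals between 84.8 and 103 and replicate 2 arrays between 69.7 and 75.3, and the hybridization controls had geometric means of 7762 to 11670.9 and of 2718.4 to 2840.3 respectively. Within each replicate number the 18S rRNA control was lower on the treated arrays than on the untreated one, and Tg 3 h replicate 1 stood apart with the lowest value (664.2, against 1158.3 to 2568.2 on the other arrays) and the highest 3′ over 5′ ratio for ACTB (4.47, against 2.75 to 3.49). Of 9 markers of the cerebellar granule lineage and of medulloblastoma, 6 had a signal of at least 100 on every array (ZIC1, ZIC2, GLI2, PAX6, NES and VIM), while ATOH1 stayed under 100 on all of them.

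Of the 9 genes, 8 could be tested, from 9 of the 18 probe sets, and PTGS2 was the single one that passed. It rose at 8 h, and it was as high at 3 h, where it passed in the blocked fit and missed the threshold without the block. At 3 h, 0 of 8 genes passed without the block against 0.0701% of all genes tested, with 1 at an unadjusted p under 0.05 where 4.5% of all genes were, and 1 of 8 passed in the blocked fit against 1.25%. At 8 h, 1 of 8 passed in both fits, against 0.857% of all genes without the block and 8.54% with it. The genes were chosen with earlier results of these data known, so these shares are a description and no test of the set. Between 8 h and 3 h, 0 of 8 passed in either fit, where 0% of all genes passed without the block and 3.25% with it. An unadjusted p under 0.05 was reached by 0 of 8 in either fit, where 7.82% and 18.9% of all genes reached it. The median log2 fold change of the 8 genes was 0.61 at 3 h and -0.14 at 8 h, beside -0.02 and -0.09 over all genes tested. At 3 h the median lay between PTGES (0.49) and PTGS1 (0.73), dim genes with signals of 38 to 119.3 and 6.1 to 150.9. With signals under 100 raised to 100, these 2 changes were 0.11 and 0.14, so the median is no firm sign of a shift of the set.

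**Figure D1:**
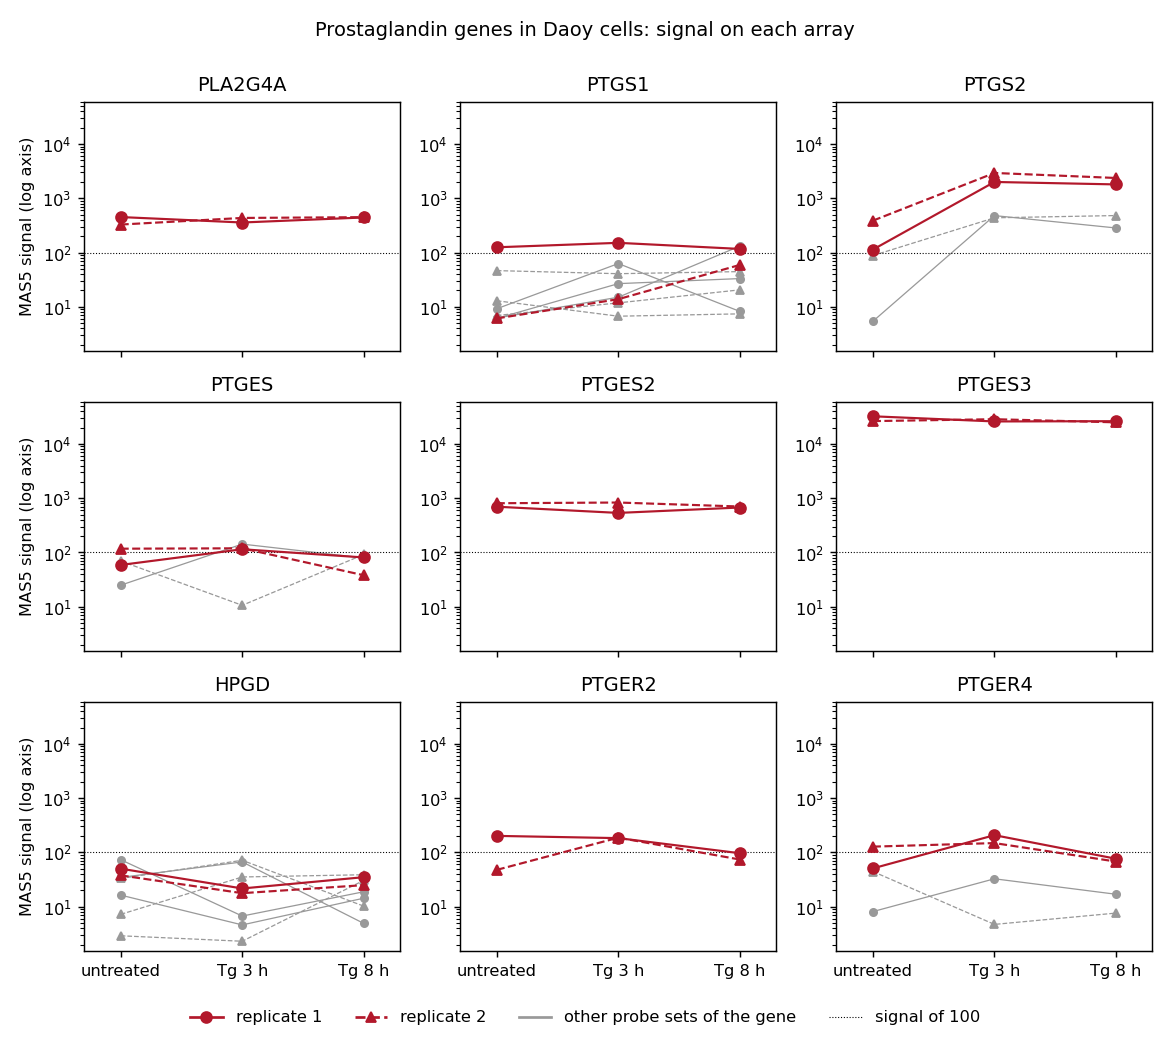
Signal of each gene on every array (y axis, MAS5 signal on a log axis; x axis, the 3 groups). Red circles and triangles are replicates 1 and 2 of the probe set that stands for the gene, grey lines its other probe sets, and the dotted line a signal of 100. PTGS2 runs from 113.3 and 386.9 in untreated cells to 1999.3 and 2930 at 3 h, while PLA2G4A, PTGES2 and PTGES3 stay nearly level and HPGD lies under the dotted line throughout.

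Neither the activity of PLA2G4A, the calcium-activated phospholipase, nor arachidonic acid itself was measured. The PLA2G4A transcript showed no change that passed. Its signal was 450.8 and 328 in untreated cells, 357.7 and 434.1 at 3 h, and 443 and 448.4 at 8 h, so the groups overlapped. The log2 fold change was 0.04 (95% interval -0.60 to 0.67, n = 2 arrays a group, limma adjusted p = 1.0) at 3 h and 0.21 (-0.43 to 0.85, adjusted p = 0.892) at 8 h. In the RefSeq order of protein-coding genes PLA2G4A and PTGS2 are direct neighbours on chromosome 1, so the largest and the smallest change of the set at 3 h came from adjacent genes.

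PTGS2 converts arachidonic acid to prostaglandin H2 and had the largest change in the set at both times, although without untreated replicate 1 the poorly measured PTGS1 exceeded it (2.90 against 2.65 on the log2 scale at 3 h, 3.77 against 2.42 at 8 h). Its signal was 113.3 and 386.9 in untreated cells, 1999.3 and 2930 after 3 h, and 1801.7 and 2367.6 after 8 h. All 4 treated arrays lay far above both untreated arrays, and the ranges of the 2 times overlapped each other. At 3 h the fold was 11.6 (log2 fold change 3.53, standard error 0.52, 95% interval 2.34 to 4.72), with a limma adjusted p of 0.105, or 0.000425 in the blocked fit. At 8 h it was 9.86 (3.30, standard error 0.52, 2.11 to 4.49), with a limma adjusted p of 0.0419, or 0.000262 in the blocked fit. From the highest log2 fold change down, PTGS2 stood at place 9 of 12839 genes at 3 h and at place 25 at 8 h. The change between the times was -0.23 (-1.42 to 0.96, adjusted p = 0.994), which leaves room for a fall or a rise of that width. In bulk RNA, fewer cells making a transcript and less of it per cell cannot be told apart.

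The untreated arrays set how firmly the PTGS2 change is known. Untreated replicate 2 was higher than replicate 1 by 1.77 on the log2 scale, a wider gap than 96% of the genes tested had, whereas the gaps were 0.55 at 3 h and 0.39 at 8 h. The change within replicate 1 was accordingly 4.14 at 3 h and 3.99 at 8 h, and within replicate 2 it was 2.92 and 2.61. Without untreated replicate 1 the change was 2.65 at 3 h and 2.42 at 8 h, and without untreated replicate 2 it was 4.42 and 4.19. Such a fit no longer holds the gap between the untreated arrays. Its standard error was accordingly smaller at 3 h, 0.33 and 0.34 against 0.52 with all arrays. Without Tg 3 h replicate 1, the array that stood apart in its controls, the change at 3 h was 3.81. At 8 h PTGS2 no longer passed when any one of the 4 treated arrays was left out (limma adjusted p = 0.077 to 0.206). The local pooled error test, named in the study's methods and rebuilt here, called PTGS2 at both times (adjusted p = 1.66e-08 and 4.74e-08). Its standard errors for PTGS2 were 0.513 at 3 h and 0.499 at 8 h, close to the 0.515 of limma without the block. Its far smaller p-values therefore did not come with a much more precise estimate, and they do not make the PTGS2 change firmer.

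**Figure D2:**
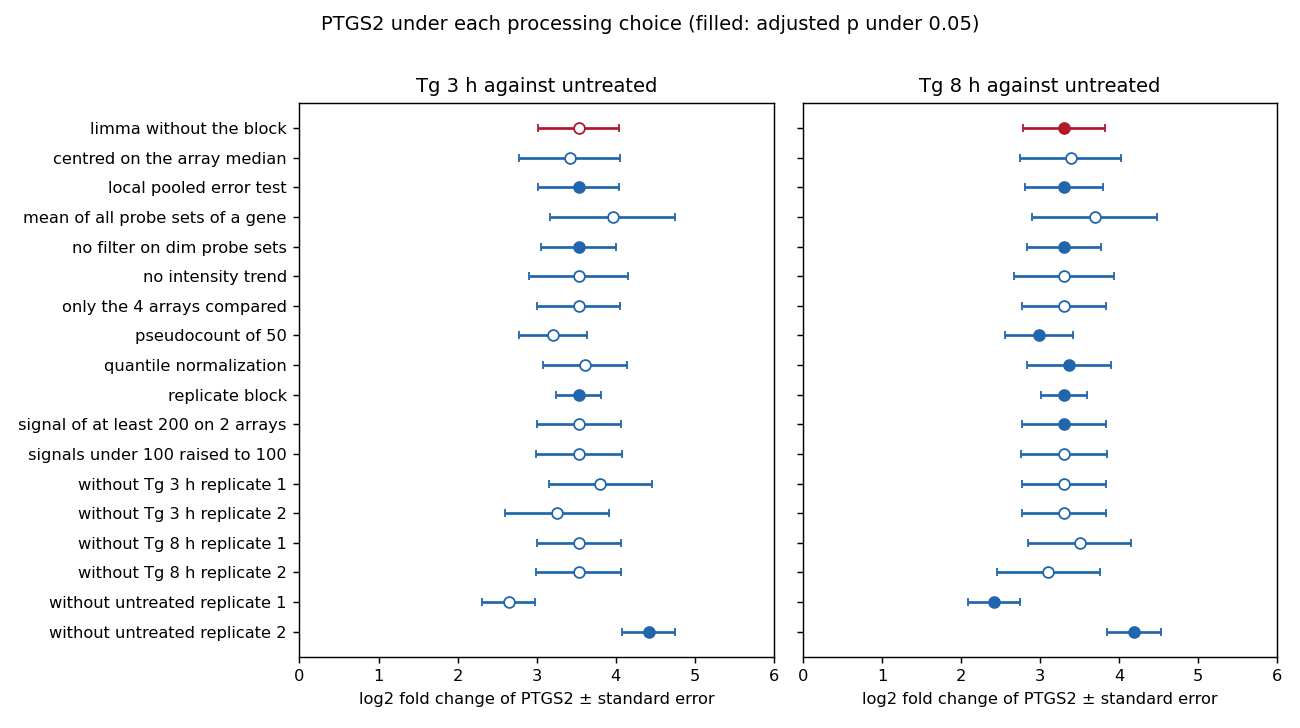
Log2 fold change of PTGS2 over untreated cells (x axis, with the standard error as the bar) under each processing choice (y axis), at 3 h on the left and 8 h on the right. Filled points passed an adjusted p of 0.05, and red is the reported fit. Every point lies above 2, while 4 of 17 alternatives at 3 h and 8 of 17 at 8 h passed.

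A second, dimmer PTGS2 probe set was below 100 in untreated cells. Its signal was 5.4 and 88 in untreated cells, 479.6 and 436.6 at 3 h, and 283.6 and 480.4 at 8 h. It entered the test through its treated arrays alone, which fixes its direction in part, so these signals are a description and no support for the change of PTGS2.

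The start of PTGS2 in RefSeq (GRCh38.p14) is shown because it was the gene of the set that moved. Each window is 30 bases, written 5′ to 3′ on the strand of the gene, the minus strand of chromosome 1, and the capitals mark the matched letters. The first lies at chr1:186680464-186680493 and holds TGACG on the opposite strand (read here as CGTCA), the core that CREB and ATF factors bind, from base -58 before the start site. The second lies at chr1:186680438-186680467, shares 4 bases with the first, and holds the TATA box motif TATAAA from base -32. Another CGTCA match of PTGS2, from base 25 after the start site, is not printed.
PTGS2 CREB/ATF core: aaacagtcatttCGTCAcatgggcttggtt
PTGS2 TATA box: ggttttcagtctTATAAAaaggaaggttct

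In windows of 300 bases, from 250 before to 50 after each start site and on both strands, TGACG stood in 24.6% of 35116 RefSeq promoters and TATAAA in 11.5%, so neither is rare. Of the 13 promoters of the 9 genes, 4 held TGACG, those of PTGS2, HPGD, PTGER2 and PTGES3, and 2 held TATAAA, those of PTGS2 and PTGS1. The NFAT core GGAAA stood in 61.2% of all promoters and in 8 of these 13, PTGS2 included. The NF-κB motif (11.3% of all promoters) was matched in 4 of the 13, for HPGD, PTGER2, PTGER4 and PTGES3, and the E-box CACGTG (7.26%) in 2, for HPGD and PTGES2. The longer motifs TGACGTCA and TGACGTGG, which contain TGACG, as well as TGATGCAA, TTGCGCAA and the ER stress response element (CCAAT, 9 bases of any kind, CCACG) had no match in these 13 windows. A match is a match of letters in this window and shows no binding.

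PTGS1, the constitutive cyclooxygenase, was too dim to follow. Its brightest probe set, of the kind marked as able to bind other transcripts too, gave 124.9 and 6.1 in untreated cells, 150.9 and 13.8 at 3 h, and 116.5 and 59.1 at 8 h. Replicate 1 was the higher array in every group, and replicate 2 varied most. The log2 fold change was 0.73 at 3 h and 1.59 at 8 h, each with a standard error of 1.78 and 95% intervals of -3.38 to 4.83 and -2.52 to 5.69. Its other 3 probe sets were not tested, since they reached 100 on 1 array at most.

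The 3 prostaglandin E synthases turn prostaglandin H2 into prostaglandin E2. PTGES, the membrane-bound inducible form often made together with PTGS2, gave 58.8 and 117.3 in untreated cells, 114.5 and 119.3 at 3 h, and 80.9 and 38 at 8 h. The groups overlapped at both times, with log2 fold changes of 0.49 (95% interval -1.22 to 2.21) and -0.58 (-2.30 to 1.13). PTGES2, a membrane-associated form, gave 697.1 and 807.9, then 535.7 and 832.5, then 673.7 and 703.1. PTGES3, the cytosolic form that is also the HSP90 cochaperone p23, gave 32382.3 and 26398.3 in untreated cells, 26011.9 and 28618.3 at 3 h, and 26297.9 and 25044.2 at 8 h. Both 8 h arrays of PTGES3 lay just below the untreated ones, with a log2 fold change of -0.19 (-0.75 to 0.37, limma adjusted p = 0.889). The changes of PTGES2 were -0.17 at 3 h and -0.12 at 8 h, and neither gene passed in either fit.

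HPGD, the dehydrogenase that inactivates prostaglandin E2, was not measurable. Its 4 probe sets ranged from 2.3 to 73.3 over the 6 arrays, under 100 everywhere, and none was tested. The one with the highest mean log2 signal gave 50.1 and 37.7, then 21.6 and 17.7, then 34.9 and 24.9, and no fold is given at this brightness.

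PTGER2 and PTGER4 encode the EP2 and EP4 receptors, through which prostaglandin E2 raises cyclic AMP. PTGER4 gave 50.7 and 127.6 in untreated cells, 207.7 and 148.4 at 3 h, and 76.3 and 67.7 at 8 h. Both 3 h arrays were above both untreated arrays, and the 8 h arrays lay between the untreated ones. The log2 fold change was 1.13 (95% interval -0.37 to 2.62, limma adjusted p = 1.0) at 3 h and -0.16 (-1.65 to 1.33, adjusted p = 0.979) at 8 h. PTGER2 gave 201.4 and 47.6, then 183.1 and 186.7, then 96.5 and 73.8, so both treated groups lay within the wide span of the untreated pair. Its log2 fold change was 0.92 (-0.74 to 2.58) at 3 h and -0.21 (-1.87 to 1.44) at 8 h. From 3 h to 8 h the difference was -1.29 for PTGER4 (-2.78 to 0.20, limma adjusted p = 0.816) and -1.13 for PTGER2 (-2.79 to 0.53, adjusted p = 0.87), and neither passed.

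**Figure D3:**
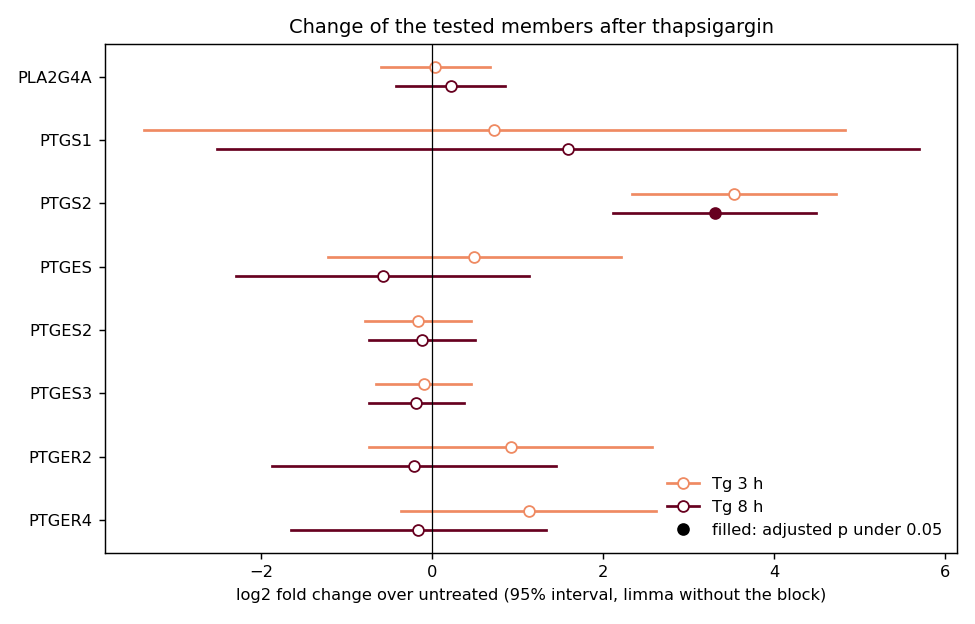
Log2 fold change over untreated cells (x axis, with the 95% interval of limma without the block as the bar) for the 8 genes tested (y axis), at 3 h in orange and 8 h in dark red. The filled point, PTGS2 at 8 h, passed an adjusted p of 0.05, and both PTGS2 intervals lie above 0 while those of the other 7 genes include 0.

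Counted by overlap alone, both treated arrays lay outside the untreated pair for 2 of 8 genes at 3 h, PTGS2 and PTGER4, where 30.5% of all genes did so. At 8 h it was again 2 of 8, PTGS2 above and PTGES3 below, where 42% of all genes did so. These shares were not above those of all genes.

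The genes whose log2 signals followed those of PTGS2 most closely over the 6 arrays, among 7937 genes whose mean signal reached 500 in any group, were GADD45A (Pearson r = 0.997), CBLB (0.996), OSMR (0.991), CXCL8 (0.984) and EIF2AK3 (0.983). The correlation describes shape only, over 6 arrays in 3 groups, with a common scaling and the same untreated pair. CXCL8, the chemokine interleukin 8, gave 42.3 and 153.8 in untreated cells, 5035.4 and 4468.4 at 3 h, and 1853.2 and 3091.3 at 8 h. EIF2AK3, the ER stress sensor PERK, gave 621.8 and 1038.5, then 2571.6 and 3517.5, then 3190.1 and 4019.1. GADD45A is a growth arrest gene of the stress response, CBLB a ubiquitin ligase and OSMR the oncostatin M receptor, and none of these 3 passed at either time without the block. CXCL8 passed at both times (limma adjusted p = 0.0198 and 0.014) and EIF2AK3 at 8 h (0.0279). The choice by correlation on these arrays fixes that the 5 genes share the pattern of PTGS2, its gap between the untreated arrays included, and CXCL8 reached a mean of 500 in the treated groups alone.

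**Figure D4:**
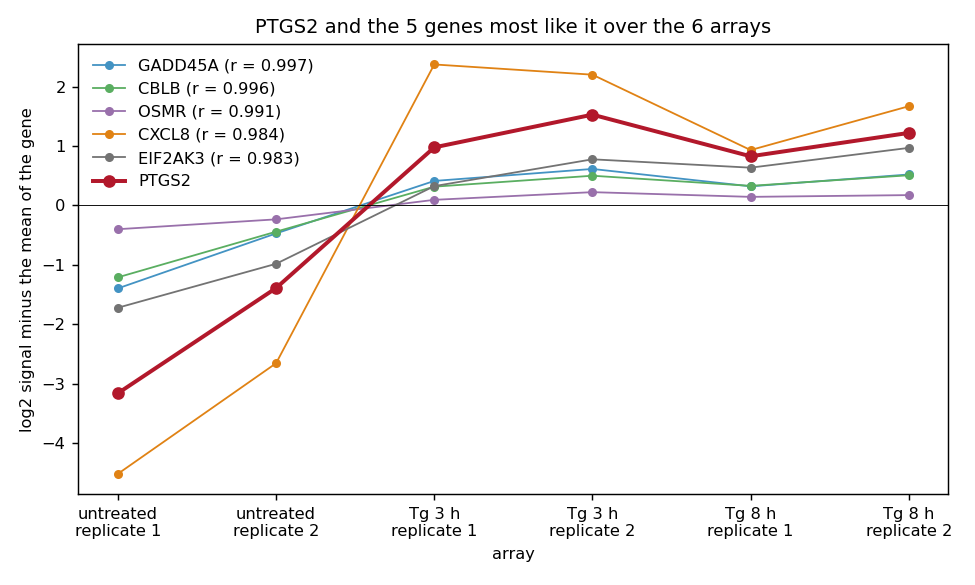
Log2 signal minus the mean of the gene (y axis) on each of the 6 arrays (x axis) for PTGS2, in thick red, and the 5 genes most like it. Every line is lowest on untreated replicate 1, next on untreated replicate 2, and higher on all 4 treated arrays, with CXCL8 spanning more than PTGS2 and OSMR least.

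The wider pathway was read from lists of other phospholipases, prostanoid synthases, transporters and reductases, prostanoid receptors, lipoxygenases, genes of arachidonate supply, the cyclic AMP arm of EP2 and EP4, and proteins that bind AU-rich elements such as those of PTGS2 mRNA. Of 76 such genes with a probe set of their own, 56 were tested. At 3 h, 0 passed with limma in either fit and 0 with the local pooled error test, while 3 were higher and 1 lower at an unadjusted p under 0.05, or 7.14% of the 56 beside 4.5% of all genes. In the blocked fit 4 were higher and 3 lower by that measure, 12.5% beside 13.1%. At 8 h, 1 rose and 0 fell without the block, or 1.79% of the 56 beside 0.857% of all genes. In the blocked fit 2 rose and 2 fell, or 7.14% beside 8.54%, so that share was not above the one of all genes.

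PNPLA8, a calcium-independent phospholipase A2 of mitochondria and peroxisomes, was the pathway gene that rose at 8 h, a call that not every setting kept. Its signal was 1900.4 and 2397.8 in untreated cells, 3097.4 and 3273.4 at 3 h, and 6001.2 and 5219.5 at 8 h, with no overlap between any of the groups. The log2 fold change at 8 h was 1.39 (standard error 0.21, limma adjusted p = 0.0382, or 0.000724 in the blocked fit). Its other 2 probe sets gave 1.48 (adjusted p = 0.0503) and 1.45 (adjusted p = 0.0453). They were read on the same arrays and are not independent. The probe set that stands for PNPLA8 and the one at 1.48 are of the kind marked as able to bind other transcripts too. PNPLA8 passed in 9 of 17 alternatives, with a log2 fold change of 1.22 to 1.56. When single arrays were left out, it passed without untreated replicate 2 (adjusted p = 0.045) and in none of the other 5 cases, with adjusted p-values up to 0.278. At 3 h the change was 0.58, which passed in neither fit (adjusted p = 1.0 and 0.151).

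Downstream of the receptors, PDE4D, a phosphodiesterase that breaks down cyclic AMP, gave 289 and 585.6 in untreated cells, 794.4 and 1074.8 at 3 h, and 1515.9 and 1513.1 at 8 h. Its log2 fold change at 8 h was 1.88 (standard error 0.34), with a limma adjusted p of 0.0697, or 0.00153 in the blocked fit. At 3 h it was 1.17 (adjusted p = 0.843, or 0.0561 in the blocked fit). The 2 genes that fell at 8 h in the blocked fit were named after their values were seen, and neither passed with the local pooled error test. CBR1, a carbonyl reductase that can reduce prostaglandin E2, changed by -0.63 (limma adjusted p = 0.361, or 0.0496 in the blocked fit). PRXL2B, a prostaglandin F synthase, changed by -1.04 (adjusted p = 0.246, or 0.0305 in the blocked fit).

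Other pathway genes with large changes were dim and did not pass. At 3 h, the prostacyclin synthase PTGIS differed by -1.13 and the prostaglandin F receptor PTGFR by 0.84 on the log2 scale. The 8 h arrays of PTGFR also lay above both untreated arrays, with a difference of 1.10 (limma adjusted p = 0.532). Those of PTGIS overlapped the untreated arrays, with a difference of -0.74. At 8 h, ALOX5AP, which presents arachidonic acid to 5-lipoxygenase, gave 246.2 and 417.9 against 162.7 and 19.5 in untreated cells, a difference of 2.51 (limma adjusted p = 0.562). The receptor PTGDR2 differed by 2.01 (adjusted p = 0.661), from 22.2 and 24.2 to 126 and 69.1, and reached 100 on treated arrays alone. Between 8 h and 3 h the blocked fit called 3 of the 56, or 5.36% beside 3.25% of all genes, with PNPLA8 higher and the mRNA decay factors ZFP36L1 and ZFP36L2 lower at 8 h, and the fit without the block called 0. These 3 were also named after their values were seen. ZFP36L2 gave 1196.9 and 1357.1 at 3 h and 490.1 and 672.2 at 8 h, beside 709.1 and 940.3 in untreated cells.

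Immune cells and fibroblasts can also make prostaglandins, so their markers are given beside PTGS2. Of 5 immune markers with a probe set, 0 reached 100 on all arrays and PTPRC and CD14 stayed under 100 on all, and their summed signal was 226.1 to 276.2 in untreated cells, 214.9 to 240.1 at 3 h and 190.6 to 379.8 at 8 h. Of 7 fibroblast markers, 4 (COL1A1, COL1A2, LUM and THY1) were at 100 or more on all arrays. PDGFRA stayed under 100 on all, and DCN and PDGFRB were in neither class. The summed signal of the 7 was 26069.9 to 35861.3 in untreated cells, 20646.8 to 29502.5 at 3 h and 19843.2 to 32655.5 at 8 h. Neither sum exceeded its untreated range at 3 h, and at 8 h the immune sum ran from below that range to above it. Every array came from one cell line, so no immune cells or fibroblasts were part of the design. Neither the source of these marker signals nor their link to PTGS2 was tested.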

How the data were processed

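RNA of 6 Daoy samples was hybridized to expression arrays of 54675 probe sets, 2 arrays for each of 3 groups. The deposited values were linear signal intensities computed by the authors with MAS5, and the log2 step was done here. The 9 genes and all lists were chosen with earlier results of these data known. Symbols came from the platform annotation, in which 41097 probe sets carry 1 symbol, and 41043 of them matched RefSeq. Fits used limma 3.58.1 in R 4.3.3 (lmFit, eBayes with an intensity trend) on all 6 arrays with the group as the term, two-sided, and Python 3.11.15 with pandas 2.3.3. The fits were also run on simulated arrays with independent noise. Those arrays held no deviation shared by replicate number, so they do not show how the fits behave where arrays share one. The study describes 2 independent experiments, without saying which samples belong to each, so the p-values reflect only the spread among these arrays, and their small number limits the precision.

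Arrays with the same number deviated from their group means together (correlations of 0.26 to 0.32 over 27616 probe sets, which are not independent, and of 0.66 to 0.70 over the 12451 with a mean signal of 500 or more), and the number was therefore also used as a block. The methods' local pooled error test was rebuilt here with Benjamini-Hochberg adjustment. Pathway genes named were those that passed, and otherwise the 3 largest changes at each time without overlap of the untreated arrays, and the 5 genes most correlated with each of the 9 genes that passed were named. The alternatives were the block, that test, 2 other scalings, other filters, a floor, a pseudocount, no trend, 4 arrays only, the mean of all probe sets and leaving out each array. Detection calls were not used.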

Additional observations from a re-analysis of the deposited data

Results flagged for a closer look

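Among the 9 probe sets too dim to be tested, 2 lay higher on both treated arrays than on both untreated arrays at either time. Of all genes tested, 30.5% at 3 h and 42% at 8 h lay outside the untreated pair in either direction, so such cases are common. A dim PTGS1 probe set gave 62.6 and 11.8 at 3 h against 9.2 and 6.9 in untreated cells, a difference of 1.77 between mean log2 signals, all at signals under 100. The dimmer PTGES probe set gave 79.2 and 91.7 at 8 h against 24.9 and 69.5, a difference of 1.03. Neither difference was tested. At 8 h the brighter PTGES probe set differed the other way (-0.58 on the log2 scale). Dim probe sets also lay lower on both treated arrays than on both untreated ones: an HPGD probe set at 3 h (21.6 and 17.7 against 50.1 and 37.7) and at 8 h (34.9 and 24.9), and another of HPGD at 8 h (18.8 and 10.2 against 73.3 and 33.1).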

How the results depend on the processing

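With the replicate number as a block, the members that passed were 1 at 3 h and 1 at 8 h, and 4 other pathway genes passed at 8 h. At 3 h, 1 member also passed with the local pooled error test, where 0.319% of all genes did, and with no filter on dim probe sets. At 8 h, 0 members passed after centring on the array median, with a gene read as the mean of its probe sets, without the intensity trend, with only the 4 arrays compared and with signals under 100 raised to 100. Of the other pathway genes at 8 h, 0 passed after centring, without the trend and with 4 arrays only. With the local pooled error test 2 passed, PDE4D and PNPLA8, or 3.57% of the 56 beside 1.34% of all genes. Leaving out each array in turn gave 0 to 1 members at 3 h, where 1 passed without untreated replicate 2, and 0 to 1 at 8 h, where 0 passed without any one of the Tg 3 h or Tg 8 h arrays. It gave 0 to 2 other pathway genes at 8 h, with 0 in 5 of the 6 cases and 2 without untreated replicate 2. Centring moved the median of all genes by -0.11 at 3 h and by 0.20 between 8 h and 3 h. PTGS2 kept its direction against untreated cells in all 17 alternatives, with a log2 fold change of 2.65 to 4.42 at 3 h and 2.42 to 4.19 at 8 h. The cause of these differences was not tested.

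Of 387 member values, 20 turned direction, none of them past the threshold. PLA2G4A at 3 h became -0.078 after centring and -0.005 after quantile normalization, PTGS1 became -0.050 at 8 h and -0.19 between 8 h and 3 h with the floor of 100, and PTGES3 became 0.11 between 8 h and 3 h after centring. When each array was left out in turn, the ranges at 3 h were -0.19 to 0.26 for PLA2G4A, -1.45 to 2.90 for PTGS1, -0.0052 to 0.99 for PTGES, -0.49 to 0.15 for PTGES2, -0.25 to 0.048 for PTGES3 and -0.12 to 1.96 for PTGER2. At 8 h they were -0.016 to 0.44 for PLA2G4A, -0.59 to 3.77 for PTGS1, -1.25 to 0.83 for PTGER2 and -0.83 to 0.50 for PTGER4. Between 8 h and 3 h they were -0.86 to 2.59 for PTGS1, -0.50 to 0.047 for PTGS2 and -0.27 to 0.36 for PTGES2. HPGD and the dim probe sets of PTGS1 are limited by signals near the background of the array.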
